A study of Homo sapiens with 9 samples.

Results

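The genes described here are 45 genes of DNA replication and of the passage from G1 into S phase (G1/S), taken from a fixed list by gene symbol, out of 17958 genes measured. Of the 45, 44 were measured on a row naming that gene alone. The row for PCNA, the sliding clamp, also names PCNA-AS1 and was not used. A gene with several rows was represented by its brightest, by mean value. The cells were HCT 116, an established human colorectal cancer line, and RNA was taken 24 hours after transient transfection. The KL-FL group received a vector for full-length klotho of the mouse, which acts with FGF receptors as the receptor for FGF23. The KL1 group received a vector for the mouse KL1 subdomain, and the control group pcDNA3 without klotho. There were 3 arrays per group. All groups went through transfection, with JetPEI or polyethylenimine, and which sample received which reagent is not stated. The share of cells that took up a vector is not given in the sources used here. Values are deposited log2 expression values, so a difference of 1 is a doubling. Neither cell cycle phase nor DNA synthesis was measured, and fewer cells in S phase cannot be told apart from less RNA per cell.

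The human KL row, probe set 7968556, read 3.05 ± 0.014 in control, 3.19 ± 0.046 with KL-FL and 3.19 ± 0.067 with KL1 (SD, n = 3 each), and checks the mouse vectors only weakly. The epithelial markers EPCAM, KRT8, KRT18, KRT19 and CDH1 were between 8.51 and 10.74 in control. VIL1 and CDX1, markers of differentiated intestine, were at 3.78 and 4.95, while CDX2, on the same list, was at 6.50. The 4 leukocyte and 4 endothelial markers measured had gene means between 2.74 and 3.63. Those of the 5 fibroblast markers ran from 2.55 to 5.77, COL1A1 being the highest. The mean of the 5 fibroblast markers was between 4.09 and 4.14 on the 6 klotho arrays and between 4.05 and 4.07 on the controls, and its part in the results below was not tested. KL-FL replicate 3 correlated least with the rest (median 0.997) and KL1 replicate 2 next least (0.998). Both bear on single genes: without KL-FL replicate 3 the KL-FL difference from control turned sign for 6 of 44 members and moved by over 1.5 times for 26 more, and without KL1 replicate 2 the KL1 difference did so for 7 and 18. Some deposited values repeat exactly: 10 of the 44 members have a value shared by 3 or more arrays, PRIM1 and MCM4 by 4, and the effect of this on the spread was not tested.

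DNA replication starts at origins that the origin recognition complex, CDC6 and CDT1 load with the MCM helicase during G1. Cyclin E with CDK2 and the E2F transcription factors then commit the cell to S phase, when CDC45 and GINS activate the helicase and the polymerases follow it. E2F factors are known to drive transcription of many genes of this machinery, cyclin E and E2F1 among them, so that their RNA peaks around the G1/S boundary in dividing cells.

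An E2F-type word near the gene start was not itself used in choosing the members by symbol, and over 50% of those with a promoter window carry one. Since E2F factors are known to drive many such genes, the choice of list by itself makes a high share likely. The windows of other genes were not matched for base composition. Promoter windows of 300 bases, from 250 before to 50 after the RefSeq start (GRCh38.p14), were at hand for 38 of the 45 genes. At least 1 of the words TTTCCCGC, TTTGGCGC, TTTCGCGC and TTTGCCGC, on either strand, lay in 20 of the 38 (52.6%), against 4.44% of 13827 windows of other genes on the array and 3.33% of all 27305 windows. Words on opposite strands can overlap, and a window was counted once. The word CCAAT, on either strand, lay in 63.2% of the members' windows and 36.3% of the other genes'. TTTGAA, the core of the CHR element of many G2/M genes, lay in 1 of the 38 windows and in 1656 of the 13827, and TATAAA in 2.63% and 8.98%. The 6 stretches of 160 bases up to the start are shown as examples with and without a word. The helicase subunit MCM6, the loader CDT1, E2F1 itself and UHRF1 carry E2F words, printed in capitals. RFC2 and POLD1, the lower members with the smallest p in each comparison with control, carry none of these words in the window. Lower members can also carry a word: POLE2, CLSPN, CDT1 and E2F1 were lower on average with KL1, and each has at least 1. Capitals on the opposite strand read as the reverse complement, for example GCGGGAAA for TTTCCCGC.
MCM6, chr2:135876444-135876603, minus strand: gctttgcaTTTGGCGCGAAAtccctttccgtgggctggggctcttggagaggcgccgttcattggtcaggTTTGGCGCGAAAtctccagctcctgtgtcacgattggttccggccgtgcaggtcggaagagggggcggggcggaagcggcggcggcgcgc
CDT1, chr16:88803629-88803788, plus strand: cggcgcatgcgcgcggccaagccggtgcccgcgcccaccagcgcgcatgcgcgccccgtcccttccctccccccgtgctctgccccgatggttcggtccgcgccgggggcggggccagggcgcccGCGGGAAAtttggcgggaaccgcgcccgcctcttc
E2F1, chr20:33686386-33686545, minus strand: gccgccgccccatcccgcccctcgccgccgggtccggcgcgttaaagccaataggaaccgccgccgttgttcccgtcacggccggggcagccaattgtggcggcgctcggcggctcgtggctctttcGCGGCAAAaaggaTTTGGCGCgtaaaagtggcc
UHRF1, chr19:4909341-4909500, plus strand: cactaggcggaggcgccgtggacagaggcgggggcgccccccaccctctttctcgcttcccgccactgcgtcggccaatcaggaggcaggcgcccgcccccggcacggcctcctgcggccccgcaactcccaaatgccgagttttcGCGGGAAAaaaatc
RFC2, chr7:74254400-74254559, minus strand: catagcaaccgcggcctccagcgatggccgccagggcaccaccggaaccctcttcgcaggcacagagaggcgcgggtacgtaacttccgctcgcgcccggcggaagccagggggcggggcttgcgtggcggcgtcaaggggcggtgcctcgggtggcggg
POLD1, chr19:50384163-50384322, plus strand: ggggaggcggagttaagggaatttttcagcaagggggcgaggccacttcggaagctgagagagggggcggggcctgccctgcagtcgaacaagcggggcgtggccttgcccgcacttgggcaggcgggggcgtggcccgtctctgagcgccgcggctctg
MCM6 has the same 12-base block, a word on each strand overlapping, at 2 places. A match is a description of these letters and not evidence of binding.

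After transfection of either klotho vector the replication and G1/S genes sat close to control. With KL-FL, 29 of 44 were lower and 15 higher, with a median log2 difference of -0.029, where all genes had a median of 0.0099 and 42.6% were lower and 57.3% higher. With KL1, 29 of 44 were again lower, with a median of -0.028, against a median of 0.0026, 47.8% lower and 52.1% higher for all genes. RFC2 was the member furthest below control in both comparisons, at -0.17 and -0.18, and CDC6 the member furthest above it with KL-FL, at 0.14. None of the 44 passed limma's test over all genes at an adjusted p of 0.05 in any comparison. That threshold was passed by 0.00557% of genes, 1 gene, in each comparison with control and by 0% between KL-FL and KL1. The smallest adjusted p of a member was 0.583 for KL-FL, 0.927 for KL1 and 0.855 between them.

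At an unadjusted p under 0.05 there were 5 members lower with KL-FL, RFC2, PRIM1, POLD1, POLE2 and CCNE2, where 2.28% of all genes were, and 3 higher, CDC6, RFC5 and POLD3, where 4.88% were. With KL1 there were 2 lower, RFC2 and POLD1, against 2.11% of all genes, and 0 higher, against 2.99%. Leaving out 1 array of any group moved the lower counts to between 1 (without control replicate 2) and 10 (without KL-FL replicate 2) for KL-FL, with 2 where KL-FL replicate 3 or control replicate 1 was left out and 3 where KL1 replicate 3 was. For KL1 they lay between 1 (without control replicate 2) and 5 (without control replicate 3), with 4 where KL-FL replicate 3 was left out and 3 where KL-FL replicate 2 or KL1 replicate 1 was. Both directions together gave 4 (without control replicate 2) to 12 (without KL-FL replicate 2) for KL-FL. The share of all genes at this p was not counted with an array left out, so these counts have none beside them. Without KL-FL replicate 2, 49.7% of all genes were lower with KL-FL. All 3 KL-FL arrays lay below all 3 controls for 9 members, which is 20.5% of them against 3.25% of all genes, and above for 2, against 7.13%. For CCNE1, POLD2 and PRIM1 the gap was very narrow. Their highest KL-FL values were 7.4071, 8.63149 and 8.10206, and their lowest control values 7.40814, 8.6335 and 8.10594. With KL1 the counts were 6 below, against 4.34% of all genes, and 2 above, against 5.13%. Of 65 further genes of these pathways, described below, 0 lay below all controls on all KL-FL arrays and 6 (9.23%) above. With KL1, 3 of the 65 (4.62%) lay below and 1 (1.54%) above. The 2 comparisons share their 3 controls, so they are not independent. RFC2, PRIM1, POLE2 and CCNE2 lay below control on all 6 klotho arrays and CDC6 above it on all 6. The share of all genes that did either was not counted, so no background stands beside these members. The 95% intervals of all 44 differences ran from -0.36 to 0.25 with KL-FL and from -0.29 to 0.38 with KL1, so the bounds reached folds of 0.781 and 1.30 at most.

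**Figure D1:**
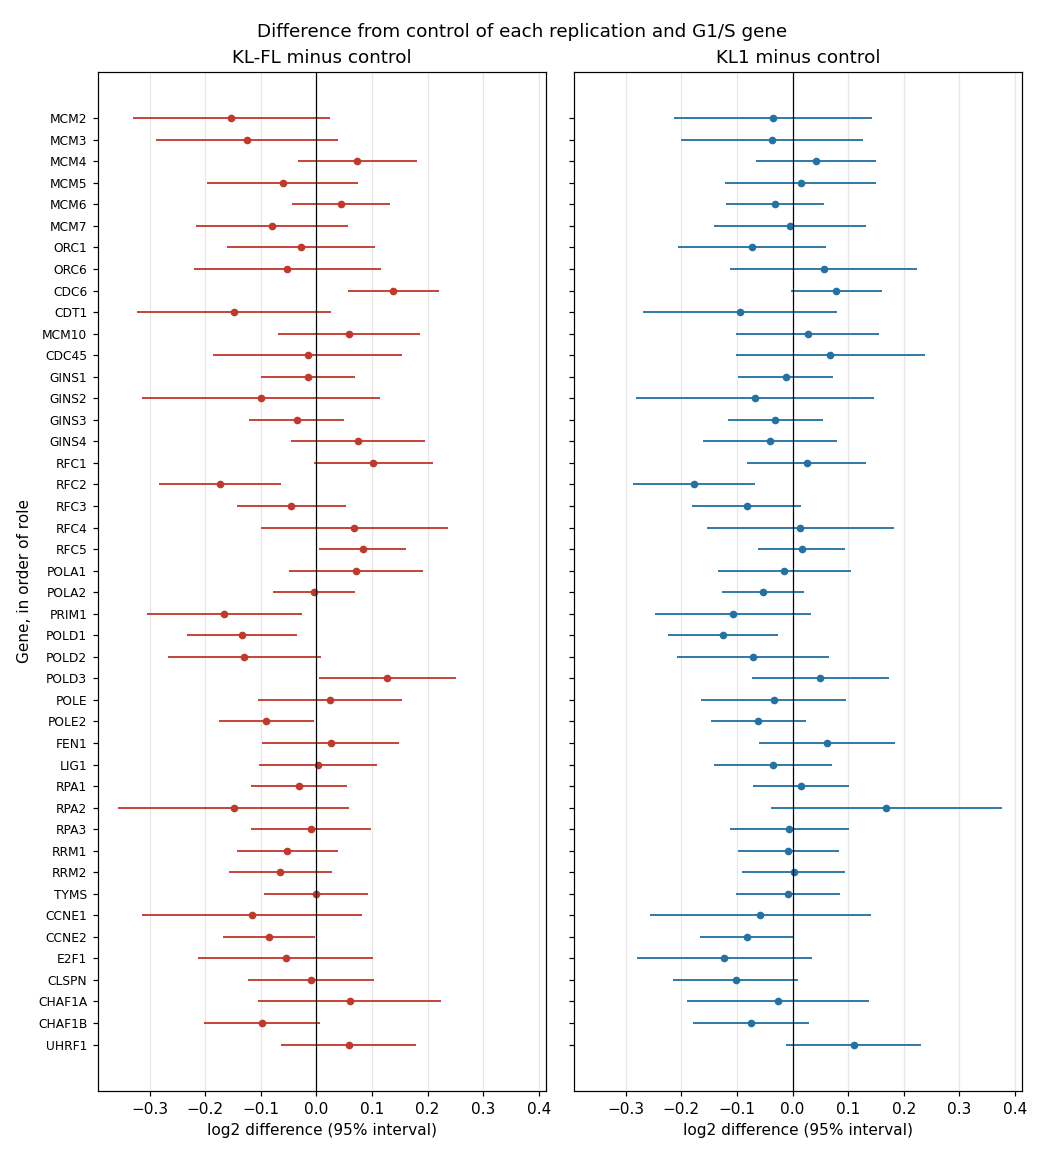
Log2 difference from control (points) with its 95% interval from limma (lines) for each of the 44 genes, in order of role from top to bottom, for KL-FL on the left and KL1 on the right. RFC2 and POLD1 lie below 0 with their intervals in both panels, CDC6 lies above 0 together with its interval for KL-FL, where for KL1 the interval reaches -0.0028, and most other intervals cross 0.

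The arrays did not carry the members evenly. The median deviation of the 44 from their own means over 9 arrays was 0.030, 0.015 and -0.0062 on control replicates 1 to 3, 0.0039, 0.015 and -0.072 with KL-FL and -0.0063, 0.0034 and -0.011 with KL1. KL-FL replicate 3 was the low array: it held the lowest of the 3 KL-FL values for 34 of 44 members, where it did so for 55.8% of all genes, and the lowest of all 9 values for 19 members. Its deviation for 3311 other genes of like level, between 6.89 and 8.35, had a median of -0.018. Without KL-FL replicate 3 the KL-FL comparison had 25 of 44 members lower and a median of -0.0071, and 35.8% of all genes were lower. The KL-FL median was -0.047 without KL-FL replicate 2, -0.016 without control replicate 1 and -0.050 without control replicate 3, with 27 to 31 of 44 lower. For KL1 the median was -0.0087 without control replicate 1 and -0.013 without control replicate 2. Genes of like level were lower in 47.8% of cases with KL-FL and in 60.7% with KL1, so the members' 65.9% lay nearer to such genes in the KL1 comparison.

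**Figure D2:**
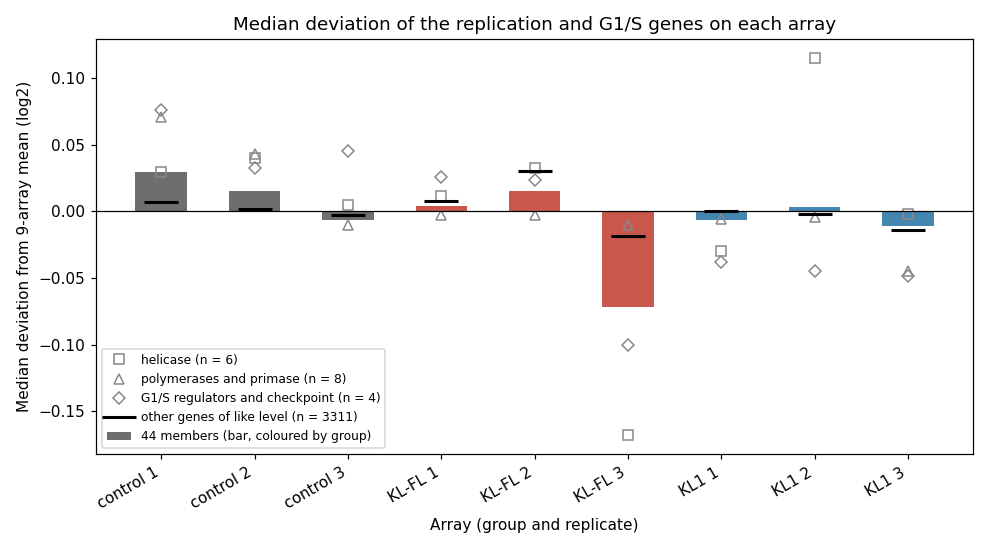
Median deviation from the 9-array mean, in log2 units, of the 44 genes on each array (bars, coloured by vector), of 3 role groups (open symbols) and of 3311 other genes of like level (black dashes). The bar of KL-FL replicate 3 reaches -0.072, the lowest of the 9, and its helicase symbol lies lowest of all, at -0.17.

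**Figure D3:**
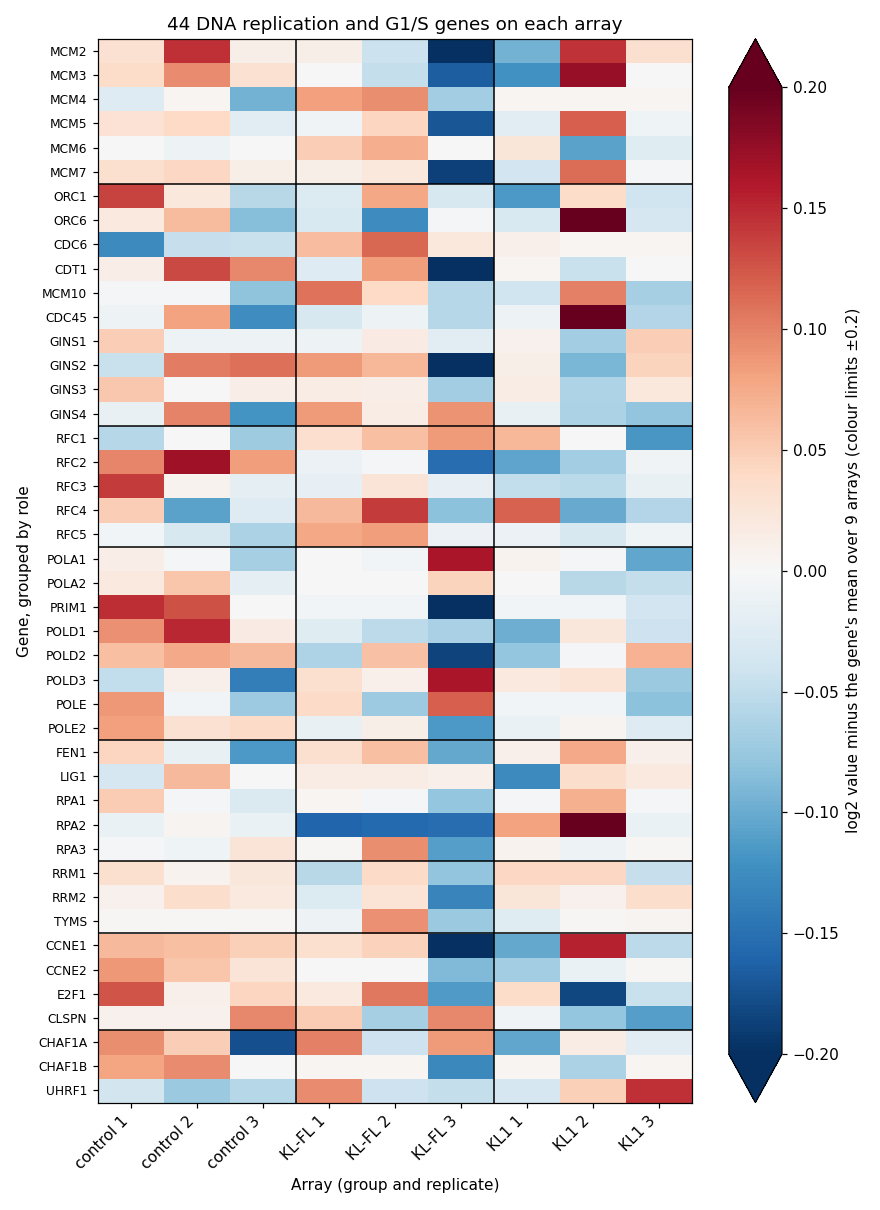
Each row is a gene, in the order of its role with lines between roles, and each column an array; colour gives the log2 value minus the gene's mean over 9 arrays, with colours limited at ±0.2. MCM2, MCM3, MCM5 and MCM7 are blue on KL-FL replicate 3 and red on KL1 replicate 2, RFC2 is red on all 3 controls, and CDC6 is blue on all 3 controls.

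Origin licensing and helicase activation, 10 genes, split in both comparisons: 7 were lower with KL-FL (median -0.021) and 6 with KL1 (median -0.022). CDC6 (probe set 8007071), which loads the helicase together with CDT1, had log2 values of 8.61, 8.70 and 8.70 on control replicates 1 to 3, 8.80, 8.86 and 8.76 with KL-FL and 8.75, 8.75 and 8.75 with KL1. Every klotho array was above every control. Group means were 8.67 ± 0.048, 8.81 ± 0.047 and 8.75 ± 0.0036 (SD, n = 3 each), with limma differences from control of 0.14 (SE 0.036, adjusted p = 0.583) for KL-FL and 0.079 (SE 0.036, adjusted p = 0.927) for KL1. With array weights in limma CDC6 passed, at 0.13 (adjusted p = 0.0419), a fit that gave KL-FL replicate 1 a weight of 6.76 and KL-FL replicate 3 a weight of 0.265. CDT1, which brings the helicase to CDC6, differed by -0.15 with KL-FL and -0.094 with KL1; its value was 6.65 on KL-FL replicate 3 and between 6.87 and 7.04 on the other 8 arrays. Its KL-FL difference was -0.052 without that array.

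ORC1, the cell cycle regulated subunit of the origin recognition complex, differed by -0.027 and -0.072, and ORC6 by -0.052 and 0.056. CDC45, the helicase cofactor, differed by -0.015 and 0.068, and MCM10, which helps to activate the helicase, by 0.059 and 0.027. The GINS complex holds CDC45 on the helicase. Its subunits GINS1, GINS2 and GINS3 differed by between -0.099 and -0.012 over both comparisons, and GINS2 had the widest scatter within groups of all 44 genes (SD 0.14). Without KL-FL replicate 3 the KL-FL difference of GINS2 turned to 0.020, and those of ORC1, CDC45, GINS1, GINS3 and MCM10 became -0.0076, -0.0030, -0.0066, -0.0076 and 0.10. Without KL1 replicate 2 the KL1 differences of ORC6, CDC45, MCM10 and GINS1 turned to -0.031, -0.017, -0.024 and 0.020, and those of ORC1, GINS2 and GINS3 became -0.11, -0.027 and -0.0040. GINS4 (probe set 8146130) read 6.26, 6.38 and 6.16 on control replicates 1 to 3, 6.36, 6.29 and 6.37 with KL-FL and 6.26, 6.22 and 6.20 with KL1. All KL-FL values lay above all KL1 values, while the controls spanned both groups. The limma difference between KL-FL and KL1 was 0.12 (SE 0.053, adjusted p = 0.855).

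The 6 subunits of the MCM2-7 helicase, which unwinds DNA at the fork, did not share a direction. With KL-FL 4 were lower and 2 higher (median -0.070), and with KL1 likewise 4 and 2 (median -0.018). MCM2 (probe set 8082350) read 8.09, 8.20 and 8.07 on control replicates 1 to 3, 8.07, 8.01 and 7.82 with KL-FL and 7.96, 8.20 and 8.09 with KL1. The KL-FL values overlapped control, with replicate 3 the lowest of the 9. Group means were 8.12 ± 0.073, 7.97 ± 0.13 and 8.09 ± 0.12 (SD, n = 3 each), with limma differences from control of -0.15 (SE 0.078, adjusted p = 0.709) for KL-FL and -0.036 (SE 0.078, adjusted p = 0.968) for KL1. The KL-FL difference of MCM2 was -0.079 without KL-FL replicate 3. MCM3, MCM5 and MCM7 shared this array pattern: on KL-FL replicate 3 they read 8.51, 8.06 and 9.15, each the lowest of its 9 values, and on KL1 replicate 2 they read 8.85, 8.35 and 9.45, each the highest. MCM4 and MCM6 did not, reading 8.64 and 8.05 on KL-FL replicate 3 and 8.71 and 7.94 on KL1 replicate 2. These sets of subunits were told apart after their values were seen. MCM3, MCM5 and MCM7 differed from control by -0.12, -0.061 and -0.079 with KL-FL and by -0.037, 0.015 and -0.0050 with KL1, and MCM4 by 0.074 and 0.042. Without KL-FL replicate 3 the KL-FL median of the helicase was -0.0045, with 3 of 6 lower, and MCM3, MCM4, MCM5 and MCM7 differed by -0.078, 0.13, 0.0027 and -0.012. Without KL1 replicate 2 the KL1 differences of MCM2, MCM3, MCM5 and MCM7 were -0.094, -0.12, -0.030 and -0.049. MCM6 (probe set 8055426) read 8.05, 8.04 and 8.05 on control replicates 1 to 3, 8.10, 8.12 and 8.05 with KL-FL and 8.07, 7.94 and 8.03 with KL1, with differences from control of 0.044 and -0.032. Between KL-FL and KL1 it differed by 0.076 (SE 0.039, adjusted p = 0.855) in limma. Without KL1 replicate 2 this was 0.040, and the KL1 difference from control turned to 0.0043.

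Polymerases and primase were more often lower than higher: 5 of 8 were lower with KL-FL (median -0.047) and 7 of 8 with KL1 (median -0.057). POLD1 (probe set 8030641), the catalytic subunit of polymerase delta, which copies the lagging strand, read 6.59, 6.65 and 6.51 on control replicates 1 to 3, 6.47, 6.44 and 6.43 with KL-FL and 6.40, 6.52 and 6.45 with KL1. The KL-FL values were all below control, and KL1 replicate 2 just overlapped control replicate 3. Group means were 6.58 ± 0.068, 6.45 ± 0.021 and 6.46 ± 0.060 (SD, n = 3 each), with limma differences from control of -0.13 (SE 0.044, adjusted p = 0.688) for KL-FL and -0.12 (SE 0.044, adjusted p = 0.927) for KL1. The folds were 0.912 and 0.917. Leaving out any 1 array kept the KL-FL difference between -0.17 and -0.10 and the KL1 difference between -0.16 and -0.092.

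PRIM1 (probe set 7964271), the catalytic primase subunit that starts each new strand, read 8.25, 8.23 and 8.11 on control replicates 1 to 3, 8.10, 8.10 and 7.89 with KL-FL and 8.10, 8.10 and 8.07 with KL1. Both klotho groups lay below control, but narrowly. The same value, 8.10206, stood on 4 of the klotho arrays, and control replicate 3 read 8.10594. Group means were 8.20 ± 0.081, 8.03 ± 0.12 and 8.09 ± 0.019 (SD, n = 3 each), with limma differences from control of -0.17 (SE 0.062, adjusted p = 0.688) for KL-FL and -0.11 (SE 0.062, adjusted p = 0.927) for KL1. Its KL-FL difference was -0.096 without KL-FL replicate 3. POLE2 (probe set 7978846), an accessory subunit of the leading-strand polymerase epsilon, read 7.70, 7.65 and 7.65 on control replicates 1 to 3, 7.60, 7.63 and 7.50 with KL-FL and 7.60, 7.62 and 7.59 with KL1, again with all klotho arrays below all controls. Group means were 7.67 ± 0.028, 7.58 ± 0.067 and 7.60 ± 0.015 (SD, n = 3 each), with limma differences from control of -0.090 (SE 0.038, adjusted p = 0.689) for KL-FL and -0.062 (SE 0.038, adjusted p = 0.927) for KL1. The KL-FL difference of POLE2 was -0.053 without KL-FL replicate 3.

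The remaining subunits were mixed with KL-FL. POLD3 (probe set 7942527), an accessory subunit of polymerase delta, read 6.55, 6.61 and 6.46 on control replicates 1 to 3, 6.63, 6.61 and 6.76 with KL-FL and 6.62, 6.62 and 6.52 with KL1, higher on average with both vectors but overlapping control. Group means were 6.54 ± 0.075, 6.67 ± 0.082 and 6.59 ± 0.057 (SD, n = 3 each), with limma differences from control of 0.13 (SE 0.054, adjusted p = 0.695) for KL-FL and 0.050 (SE 0.054, adjusted p = 0.935) for KL1. Its KL-FL difference was 0.080 without KL-FL replicate 3, and its KL1 difference ran from 0.010 to 0.084 when 1 array was left out, with 0.031 without KL1 replicate 2. POLD2, its partner in the same holoenzyme, differed by -0.13 and -0.071. POLE, the catalytic subunit of polymerase epsilon, differed by 0.025 and -0.034. POLA1, the catalytic subunit of polymerase alpha, differed by 0.071 and -0.015, and POLA2, which had the smallest scatter of the 44 genes within groups (SD 0.031), by -0.0039 and -0.053. POLA1, POLD3 and POLE each had their highest value of 9 on KL-FL replicate 3, the array that was lowest for PRIM1, POLD2 and POLE2. Without it the KL-FL difference of POLE turned to -0.021, and those of POLA1, POLA2 and POLD2 were 0.016, -0.019 and -0.069. Without KL1 replicate 2 the KL1 difference of POLA1 was -0.030.

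The clamp loader, replication factor C, places the sliding clamp on DNA, and its 5 subunits went different ways. With each vector 2 were lower and 3 higher (medians 0.068 and 0.014). RFC2 (probe set 8140151) read 8.36, 8.43 and 8.34 on control replicates 1 to 3, 8.25, 8.25 and 8.11 with KL-FL and 8.15, 8.19 and 8.25 with KL1. All 6 klotho arrays were below all controls. Group means were 8.38 ± 0.046, 8.20 ± 0.084 and 8.20 ± 0.049 (SD, n = 3 each), with limma differences from control of -0.17 (SE 0.049, adjusted p = 0.612) for KL-FL and -0.18 (SE 0.049, adjusted p = 0.927) for KL1. These are folds of 0.887 and 0.884, with 95% intervals of the log2 difference from -0.28 to -0.063 and from -0.29 to -0.067. The KL-FL difference ranged from -0.20 to -0.12 and the KL1 difference from -0.20 to -0.15 when any 1 array was left out. KL-FL and KL1 differed from each other by 0.0043 (SE 0.049), with a 95% interval from -0.11 to 0.11.

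RFC5 (probe set 7959052) read 8.27, 8.24 and 8.21 on control replicates 1 to 3, 8.35, 8.36 and 8.27 with KL-FL and 8.27, 8.24 and 8.27 with KL1. The KL-FL values lay above the KL1 and control values on replicates 1 and 2, and replicate 3 overlapped them. Group means were 8.24 ± 0.029, 8.33 ± 0.053 and 8.26 ± 0.013 (SD, n = 3 each), with limma differences from control of 0.083 (SE 0.034, adjusted p = 0.689) for KL-FL and 0.016 (SE 0.034, adjusted p = 0.968) for KL1. With array weights it passed limma, at 0.11 (adjusted p = 0.0433), the second member to do so beside CDC6. RFC1 (probe set 8099860), the large subunit, read 8.18, 8.23 and 8.16 on control replicates 1 to 3, 8.27, 8.29 and 8.32 with KL-FL and 8.30, 8.23 and 8.12 with KL1, with KL-FL above control on all 3 arrays. Group means were 8.19 ± 0.037, 8.29 ± 0.026 and 8.22 ± 0.093 (SD, n = 3 each), with limma differences from control of 0.10 (SE 0.047, adjusted p = 0.700) for KL-FL and 0.026 (SE 0.047, adjusted p = 0.961) for KL1. Its second row, 8165672, went the other way, at -0.098 and -0.27, so the direction of RFC1 is unsettled. RFC3 differed by -0.045 and -0.082 and RFC4 by 0.068 and 0.014. The KL-FL difference of RFC4 was 0.13 without KL-FL replicate 3, and its KL1 difference 0.057 without KL1 replicate 2.

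Lagging-strand maturation and single-strand binding, 5 genes, had medians near 0 (-0.0098 with KL-FL and 0.015 with KL1). RPA2 (probe set 7914141), the middle subunit of replication protein A, which coats single-stranded DNA, read 4.84, 4.86 and 4.84 on control replicates 1 to 3, 4.70, 4.70 and 4.70 with KL-FL and 4.94, 5.27 and 4.84 with KL1. The values within control and within KL-FL were almost equal, and KL1 replicate 2 stood high. All 3 KL1 arrays lay above all 3 KL-FL arrays. Group means were 4.85 ± 0.010, 4.70 ± 0.0034 and 5.02 ± 0.23 (SD, n = 3 each), with limma differences from control of -0.15 (SE 0.091, adjusted p = 0.729) for KL-FL and 0.17 (SE 0.091, adjusted p = 0.927) for KL1. Between KL-FL and KL1 it differed by -0.32 (SE 0.091, adjusted p = 0.855), the largest difference of a member in any comparison, and by -0.19 without KL1 replicate 2. Without that array the KL1 difference from control was 0.041. RPA2 had the lowest mean of the 44 rows, 4.85, and 43 of the 44 were at or above the median level of all genes and RPA2 was below it; the table holds no detection call.

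RPA1 and RPA3, the other subunits, differed by -0.032 and -0.0098 with KL-FL and by 0.015 and -0.0056 with KL1. FEN1 (probe set 7940561), the nuclease that trims Okazaki fragments, read 7.34, 7.28 and 7.18 on control replicates 1 to 3, 7.33, 7.35 and 7.19 with KL-FL and 7.30, 7.37 and 7.30 with KL1, with every group overlapping the others. Group means were 7.27 ± 0.080, 7.29 ± 0.087 and 7.33 ± 0.038 (SD, n = 3 each), with limma differences from control of 0.025 (SE 0.054, adjusted p = 0.918) for KL-FL and 0.061 (SE 0.054, adjusted p = 0.929) for KL1. LIG1, the ligase that seals them, differed by 0.0028 and -0.035. Leaving out KL-FL replicate 3, the KL-FL differences of FEN1, LIG1, RPA1 and RPA3 were 0.075, 0.0044, -0.0060 and 0.043. Without KL1 replicate 2 the KL1 differences were 0.040, -0.065, -0.0097 and -0.00052 in the same order.

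Of the 3 genes of nucleotide supply, 3 were lower with KL-FL (median -0.052) and 2 with KL1 (median -0.0075). RRM2 (probe set 8040223), the S phase subunit of ribonucleotide reductase, read 8.66, 8.69 and 8.67 on control replicates 1 to 3, 8.63, 8.68 and 8.52 with KL-FL and 8.68, 8.66 and 8.69 with KL1, with 8 of 9 values between 8.63 and 8.69 and KL-FL replicate 3 below them. Group means were 8.68 ± 0.013, 8.61 ± 0.082 and 8.68 ± 0.013 (SD, n = 3 each), with limma differences from control of -0.065 (SE 0.041, adjusted p = 0.733) for KL-FL and 0.0019 (SE 0.041, adjusted p = 0.999) for KL1. Between KL-FL and KL1 it differed by -0.067 (SE 0.041, adjusted p = 0.855) in limma, and by -0.023 without KL-FL replicate 3. RRM1, its partner, differed by -0.052 and -0.0075. TYMS, thymidylate synthase, differed by -0.00076 and -0.0083. Leaving out KL-FL replicate 3, the KL-FL differences of RRM2, RRM1 and TYMS were -0.021, -0.029 and 0.037, and without KL1 replicate 2 the KL1 differences were 0.0090, -0.022 and -0.012.

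The G1/S regulators and the checkpoint mediator CLSPN were lower in 4 of 4 cases with each vector (medians -0.071 and -0.092). CCNE2 (probe set 8151871), a cyclin E that activates CDK2, read 7.63, 7.60 and 7.57 on control replicates 1 to 3, 7.54, 7.54 and 7.45 with KL-FL and 7.47, 7.53 and 7.54 with KL1. All klotho values were below all controls. Group means were 7.60 ± 0.031, 7.51 ± 0.050 and 7.51 ± 0.037 (SD, n = 3 each), with limma differences from control of -0.086 (SE 0.037, adjusted p = 0.695) for KL-FL and -0.083 (SE 0.037, adjusted p = 0.927) for KL1. The KL-FL difference of CCNE2 was -0.057 without KL-FL replicate 3. CCNE1 (probe set 8027402), the other cyclin E, read 7.43, 7.42 and 7.41 on control replicates 1 to 3, 7.39, 7.41 and 7.11 with KL-FL and 7.26, 7.52 and 7.31 with KL1. The 3 controls had an SD of 0.0093, while KL-FL replicate 3 was the lowest and KL1 replicate 2 the highest of the 9. Group means were 7.42 ± 0.0093, 7.30 ± 0.17 and 7.36 ± 0.14 (SD, n = 3 each), with limma differences from control of -0.12 (SE 0.087, adjusted p = 0.757) for KL-FL and -0.058 (SE 0.087, adjusted p = 0.956) for KL1. Its KL-FL difference was -0.019 without KL-FL replicate 3, and its KL1 difference ran from -0.13 to -0.0067 when 1 array was left out, with the lower value without KL1 replicate 2.

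E2F1 (probe set 8065710), the transcription factor whose words are shown above, read 6.47, 6.36 and 6.39 on control replicates 1 to 3, 6.37, 6.46 and 6.24 with KL-FL and 6.39, 6.17 and 6.30 with KL1. The groups overlapped, KL1 replicate 2 being the lowest array and control replicate 1 the highest. Group means were 6.41 ± 0.059, 6.35 ± 0.11 and 6.29 ± 0.11 (SD, n = 3 each), with limma differences from control of -0.055 (SE 0.069, adjusted p = 0.843) for KL-FL and -0.12 (SE 0.069, adjusted p = 0.927) for KL1. The sign of the KL-FL difference turned without KL-FL replicate 3, to 0.0034, and the KL1 difference was -0.063 without KL1 replicate 2. CLSPN (probe set 7914878), which passes the replication stress signal from ATR to CHEK1, read 6.64, 6.64 and 6.73 on control replicates 1 to 3, 6.69, 6.57 and 6.73 with KL-FL and 6.63, 6.56 and 6.53 with KL1; the KL1 values were all below control and the KL-FL values on both sides of it. Group means were 6.67 ± 0.051, 6.66 ± 0.084 and 6.57 ± 0.053 (SD, n = 3 each), with limma differences from control of -0.010 (SE 0.050, adjusted p = 0.965) for KL-FL and -0.10 (SE 0.050, adjusted p = 0.927) for KL1. Its KL-FL difference was -0.045 without KL-FL replicate 3, but turned to 0.036 without KL-FL replicate 2 and to 0.019 without control replicate 3. Its second row, 7914851, gave 0.090 and 0.0018.

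Of the 3 genes that restore chromatin behind the fork, UHRF1 (probe set 8024900), which recruits the maintenance DNA methyltransferase, read 8.19, 8.15 and 8.17 on control replicates 1 to 3, 8.32, 8.19 and 8.18 with KL-FL and 8.20, 8.28 and 8.38 with KL1. The KL1 values lay above all controls and the KL-FL values overlapped them. Group means were 8.17 ± 0.019, 8.23 ± 0.080 and 8.28 ± 0.090 (SD, n = 3 each), with limma differences from control of 0.058 (SE 0.053, adjusted p = 0.785) for KL-FL and 0.11 (SE 0.053, adjusted p = 0.927) for KL1. A second UHRF1 row, 8032922, of low level (4.26), differed by -0.16 and 0.0052. CHAF1A and CHAF1B, subunits of the histone chaperone CAF-1, differed by 0.060 and -0.097 with KL-FL and by -0.026 and -0.076 with KL1. CHAF1B differed by -0.053 with KL-FL without KL-FL replicate 3, and CHAF1A by -0.053 with KL1 without KL1 replicate 2.

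**Figure D4:**
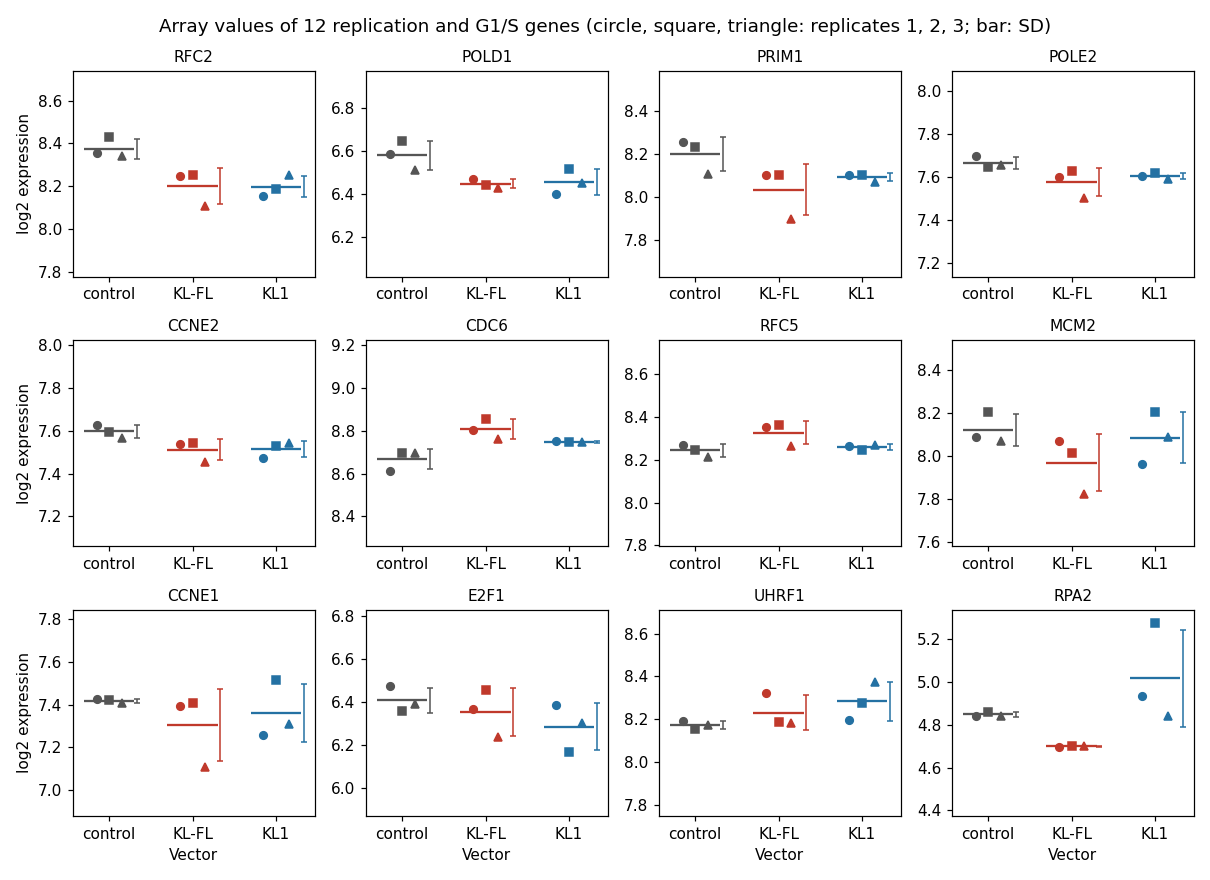
Deposited log2 values of 12 genes on every array, by vector, with circle, square and triangle for replicates 1, 2 and 3, a line at the group mean and a bar of 1 SD; every panel spans the same height on the log2 axis. RFC2, PRIM1, POLE2 and CCNE2 show both klotho groups below control without overlap, in PRIM1 only narrowly. CDC6 shows both above, and in MCM2 and CCNE1 the KL-FL triangle lies far below the other symbols.

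Between KL-FL and KL1, 24 of 44 members were lower with KL-FL and 20 higher (median -0.0036), where 45.5% of all genes were lower and 54.4% higher (median 0.0058). The groups did not overlap for RPA2 on the lower side, where 2.21% of all genes did not, and for CDC6 and GINS4 on the higher side, where 4.67% did not. At an unadjusted p under 0.05 there was 1 member lower, RPA2, against 1.55% of all genes, and 0 higher, against 3.49%. All 5 clamp loader subunits were higher with KL-FL than with KL1 (median 0.054), RFC2 by the least. RFC2 turned to -0.018 without KL-FL replicate 1 and to -0.022 without KL-FL replicate 2. It also turned without KL1 replicate 1 (-0.018) and without KL1 replicate 2 (-0.00015). The helicase was lower in 4 of 6 (median -0.075). Without KL-FL replicate 3 the count of members lower was 12 of 44 and the median 0.031. The median also lay above 0 without KL1 replicate 2 (0.0026) and without KL1 replicate 3 (0.0047). The members thus had no settled direction in this comparison.

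Of 69 further genes of the same pathways, 65 were measured: cyclins, CDKs and their inhibitors, the RB and E2F families, other origin and fork proteins, nucleases, enzymes of nucleotide supply and checkpoint kinases. None passed the threshold in either comparison with control. At an unadjusted limma p under 0.05 there were 0 lower with KL-FL, against 2.28% of all genes. There were 5 higher (7.69%), against 4.88%. With KL1 there were 0 in either direction, against 2.11% lower and 2.99% higher. With KL-FL 23 were lower and 42 higher (median 0.018), so 64.6% were higher, where 57.3% of all genes were. With KL1 42 were lower and 23 higher (median -0.025), so 64.6% were lower, where 47.8% of all genes were. With KL-FL the smallest p-values belonged on the lower side to TK1, the S phase thymidine kinase (-0.25, SE 0.14), and E2F4 (-0.078, SE 0.044). On the higher side stood HELLS, a chromatin remodeler (0.22, SE 0.073), and CCND2, cyclin D2 (0.19, SE 0.072), whose control level of 3.47 was near the low end of the scale. With KL1 they were DSCC1, a subunit of an alternative clamp loader (-0.094, SE 0.042), and E2F2 (-0.093, SE 0.045) on the lower side and CCND2 (0.15, SE 0.072) and E2F5 (0.084, SE 0.043) on the higher. CDKN1A, the p21 inhibitor that blocks CDK2, differed by 0.024 with KL-FL and -0.10 with KL1, and CDKN1B, the p27 inhibitor, by -0.11 and -0.047. CDK2 differed by -0.045 and -0.037, CCNA2 by -0.017 and -0.039 and RB1 by 0.020 and -0.032. Several of these rest on 1 array. Without KL-FL replicate 3 the KL-FL differences were -0.10 for TK1, -0.036 for E2F4, 0.13 for HELLS, 0.14 for CDKN1A and -0.020 for CDKN1B. CDK2 turned to 0.045 and CCNA2 to 0.044, and RB1 was 0.031. Without KL1 replicate 2 the KL1 difference of CDKN1A turned to 0.033, and the remaining KL1 values of RB1 equalled control.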

How the data were processed

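HCT 116 cells were profiled on 9 one-colour whole-transcript arrays from 100 ng of total RNA each, per the labels. The authors deposited log2 expression values for 33297 probe sets, from 1.79 to 12.4. The submitters' processing notes name Partek 6.6; how background, normalization and summary were done is not given in the sources used here. That the logarithm has base 2 is read from the range of values. Probe sets were named through the platform's annotation: 19181 named 1 gene, 2055 several and 12061 none here, and gene IDs matched to RefSeq changed 0 symbols, with 38 unmatched. The 17958 genes, 895 with several rows, entered 1 limma 3.58.1 model in R 4.3.3 (lmFit, contrasts.fit, eBayes) with 3 groups, no covariate and 6 residual degrees of freedom. Two-sided p-values were adjusted by Benjamini-Hochberg across the genes, with a threshold of 0.05. The fit was tested on simulated data.

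The members and lists were chosen with earlier results of these data known. Values on every array are given for the 4 members of smallest p per direction against control, the 2 per direction between KL-FL and KL1, and MCM2, CDC6, RRM2, CCNE1 and E2F1; PCNA, also named by that rule, has no row of its own. Of the 69 further genes 2 per direction are named, those of smallest p; CDKN1A, CDKN1B, CDK2, CCNA2, RB1 and the remaining members were named outside it. Promoter windows and their E2F words come from RefSeq (GRCh38.p14).

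The labels do not say whether replicates were separate cultures, so the spread behind the p-values is that between arrays and may be technical, and the number of arrays limits the precision. Same-numbered arrays of control and KL1 deviated together over all genes, with correlations of 0.113, 0.322 and 0.186, so the numbers may pair them; with KL-FL no pair exceeded 0.0974. The alternatives were other scalings, filters, probe set rules, variance models, array weights, the replicate block and each array left out.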

Additional observations from a re-analysis of the deposited data

How the results depend on the processing

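None of the 44 members passed the threshold under any of 18 alternatives in any comparison, except that 2 members, CDC6 and RFC5, passed in the KL-FL comparison with array weights, which called 523 of all genes. In the KL-FL comparison the count of members lower and their median kept their direction, with the median from -0.050 to -0.0071 when 1 array was left out. In the KL1 comparison the median was -0.0098 under quantile normalization and from -0.037 to -0.0087 without 1 array. Between KL-FL and KL1 the median turned to 0.019 with array weights, where 15 members were lower, and ran from -0.020 to 0.031 without 1 array, where 12 to 26 were lower. With the replicate number as a block the smallest adjusted p of a member in limma was 0.623 for KL-FL, 0.895 for KL1 and 0.824 between them, and no member's call changed.

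Of 42 differences of named members, 33 kept their direction in every alternative. With KL-FL the sign turned for CLSPN (0.040 with the mean of its rows, 0.0026 with array weights, from -0.045 to 0.036 without 1 array), UHRF1 (-0.049 with the mean of its rows), FEN1 (from -0.018 to 0.075 without 1 array) and E2F1 (from -0.11 to 0.0034). With KL1 it turned for RRM2 (-0.0026 with arrays centred, from -0.0043 to 0.0090 without 1 array), RFC1 (-0.12 with the mean of its rows, from -0.016 to 0.076), GINS4 (from -0.094 to 0.015), MCM2 (from -0.094 to 0.025) and MCM6 (from -0.061 to 0.0043). The cause was not tested beyond what each alternative leaves out or averages. RPA2 is below the 50th percentile filter and has no value under it.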

Other observations

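Split by the E2F words of their promoter windows, the members differed in how many lay below control with KL1. Of 19 measured members with a word 17 were lower with KL1 (median -0.035), the exceptions being CDC6 and UHRF1, against 9 of 18 without a word (median -0.0028). With KL-FL the counts were 13 of 19 (median -0.015) and 12 of 18 (median -0.042). The KL1 count of 17 of 19 rests in part on KL1 replicate 1. Without that array the KL1 differences of MCM2, MCM3, MCM7, LIG1 and TYMS, which carry a word, turned to 0.025, 0.033, 0.026, 0.017 and 0.0012. Of the members without a word, RFC1 and RFC4 turned to -0.016 and -0.052 and CHAF1A to 0.0072. Among other genes on the array the split was small: 53.6% of 614 genes with a word and 47.7% of 13213 without were lower with KL1, and 46.7% and 42.4% with KL-FL. The split was made after the values were seen, all differences in it share the same arrays, and the difference between the sets was not tested.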
